A study of Mus musculus with 31 samples.

Results

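Whole-retina samples can carry RNA of the retinal pigment epithelium, and 31 such arrays were ordered here by 1 gene that this layer expresses strongly, Ttr. Ttr encodes transthyretin, a carrier of thyroid hormone and of the retinol-binding protein. All 31 arrays were ranked by the deposited series matrix intensity of the Ttr probe, the only one on the array with that name. The 8 highest arrays were set against the 8 lowest, so that 16 of 31 arrays were used and 15 fell in neither set. The sets were therefore chosen by their own readout. Their differences are described without a test, and Ttr itself is not a finding.

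The arrays were made from total RNA of whole retina of C57BL/6J mice, to compare a pair of models of type I diabetes after 3 months of hyperglycaemia. The wild-type group (8 arrays) had the genotype Ins2/Ins2. The Ins2Akita group (9 arrays) had the genotype Ins2Akita/Ins2, a dominant mutation of an insulin gene that the animal carries in all cells. The untreated group (8 arrays) was the control of the STZ group (6 arrays), which had received streptozotocin, a compound toxic to pancreatic beta cells. The labels give neither sex nor age at sampling. They do not tie the samples to individual animals either, so the p-values cover the spread among arrays, of which a part or all could be technical.

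The retinal pigment epithelium is a single sheet of pigmented cells behind the photoreceptors. It takes up retinol from the blood, stores it as an ester and isomerises it for return to the photoreceptors as 11-cis-retinal, and it moves lactate, ions and iron between retina and choroid. It makes melanin, as do the melanocytes of the choroid and the pigmented epithelia of the ciliary body and iris at the edge of the retina. When a retina is lifted from the eye, these neighbouring tissues can come with it in varying amounts. Ttr is also a known product of the choroid plexus and of the liver.

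The 8 highest arrays held 8019.6 to 14205 intensity units of Ttr, with a median of 11526. In descending order they were Ins2Akita replicate 4, wild type replicate 5, Ins2Akita replicate 9, STZ replicate 6, Ins2Akita replicate 1, untreated replicates 7 and 4 and wild type replicate 7. The 8 lowest arrays held 995 to 2567 units, with a median of 1815. From the highest of them down they were wild type replicates 4 and 1, untreated replicate 2, wild type replicates 2 and 6, STZ replicate 4, wild type replicate 8 and untreated replicate 8. Just outside the sets lay untreated replicate 6, at 6742 against 8019.6 for the last array inside, and STZ replicate 1, at 3434 against 2567. The highest array of all had 14.3 times the intensity of the lowest. The groups were not spread evenly. The high set took 2 wild-type, 3 Ins2Akita, 2 untreated arrays and 1 STZ array, while the low set took 5 wild-type, 0 Ins2Akita, 2 untreated arrays and 1 STZ array. By their array positions, each group lay on its own BeadChip except Ins2Akita replicate 9, which lay on that of the STZ group.

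**Figure D1:**
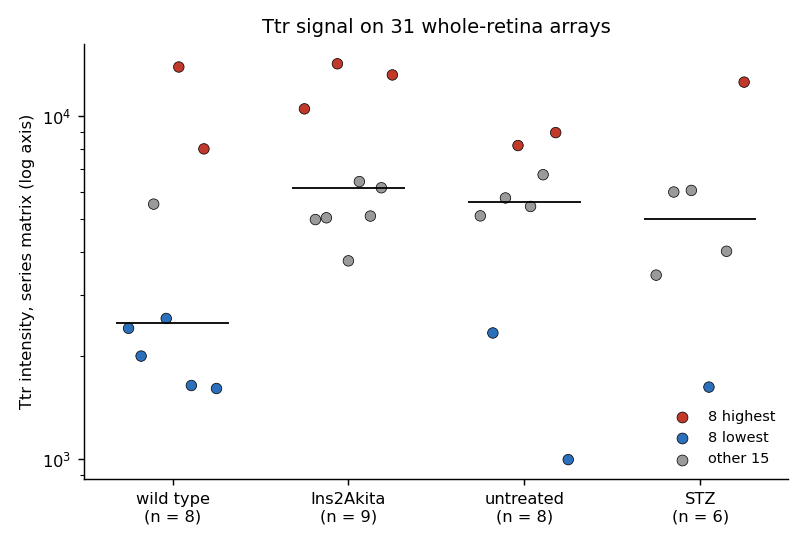
Ttr intensity in the series matrix (vertical log axis) on each of the 31 arrays, by labelled group, with a bar at each group's median. The 8 highest arrays (red) come from all 4 groups, and 5 of the 8 lowest (blue) are wild type while 0 are Ins2Akita.

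The levels below are log2 intensities after background correction and quantile normalization, on which 1 unit is a 2-fold difference. Of 25697 probes, 14936 to 16460 were detected on the high arrays (median 15534) and 14581 to 15816 on the low arrays (median 15319), so the ranges overlapped. Both sets were retina by their defining genes: all 17 measured rod genes were detected on all 16 arrays, and their median difference was -0.01. Prph2, a structural protein of photoreceptor discs, lay between 13.81 and 14.37 on the high arrays and between 13.70 and 14.27 on the low arrays. In bulk tissue, fewer cells of a type and less RNA per cell cannot be told apart.

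On average Ttr stood at 13.44 ± 0.33 (SD, n = 8) on the high arrays and at 10.81 ± 0.47 (n = 8) on the low arrays, a difference of 2.63. The second gene given as a marker of pigment epithelium, Rrh, which encodes the opsin-like protein peropsin, followed this split with a small amplitude. Its lowest, median and highest values were 8.91, 9.27 and 9.51 on the high arrays and 8.72, 8.86 and 9.30 on the low arrays. The sets overlapped, with a mean difference of 0.33. A level of 9.24 was picked as the second lowest of the high-Ttr arrays, which fixes 7 of 8 at or above it. Of the low-Ttr arrays 1 of 8 reached that level. In the 15 arrays of neither set, the Rrh level did not pass the test for following Ttr (slope -0.07 ± 0.16 SE, adjusted p = 0.943 by limma). Rrh thus does not separate the sets, which are called high-Ttr and low-Ttr arrays from here on.

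Of 11172 genes with a detected probe, each read on its brightest probe, 32 were higher on every high-Ttr array than on every low-Ttr array, which is 0.286% of the genes, and 0 were lower on every one (0%). The 38 measured genes of 3 lists, for retinoid handling, for transport and cell surface of the pigment epithelium and for melanin, gave 9 of these 32, or 8 of 31 without Ttr, whose separation the ranking fixes. Because the arrays were picked on Ttr, these counts describe the choice and are not a test. The 32 genes differed by 0.16 to 2.74, with a median of 1.28. A further 22 of them belonged to none of the 20 lists examined, and 1, Sostdc1, belonged to a list of the choroid plexus.

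Of the lists examined, that of retinoid handling held the largest share of genes without overlap. Leaving aside Ttr, which ranked the arrays, 5 of 8 measured genes did not overlap between the sets (Rgr, Rpe65, Rdh5, Lrat and Stra6), and their median difference over all 8 was 1.87 against -0.01 over all genes. Rgr encodes an opsin of pigment epithelium and Muller glia that takes part in the light-driven turnover of retinoids. Its lowest, median and highest levels were 11.33, 11.80 and 12.06 on the high-Ttr arrays and 8.16, 9.07 and 9.66 on the low-Ttr arrays. Every high-Ttr array thus lay more than 1 unit above every low-Ttr array, and the mean difference was 2.74, a 6.70-fold difference. All 3 Rgr probes were separated in the same way, with differences of 2.77, 2.74 and 2.56.

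Rpe65, the isomerase that makes 11-cis-retinol from the stored ester, had a lowest, median and highest level of 8.40, 9.03 and 9.53 against 5.82, 6.64 and 7.27, a mean difference of 2.41. Rdh5, the dehydrogenase that oxidises 11-cis-retinol, had 9.34, 9.77 and 10.09 against 6.87, 7.37 and 7.83, a difference of 2.37. Lrat, which makes the retinyl ester, had 6.45, 6.99 and 8.22 against 4.57, 4.82 and 5.43. Its probe was detected on only 3 of the 8 low-Ttr arrays, so that its difference of 2.19 is compressed by the background at the low end. Stra6, the cell-surface receptor for the retinol-binding protein, had 7.07, 7.57 and 7.96 against 6.00 on average, a difference of 1.54. The highest Lrat level of all 31 arrays was that of wild type replicate 5, which ranked 2 in Ttr.

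The other 3 retinoid genes overlapped between the sets. Rlbp1 encodes the cellular retinaldehyde-binding protein, which Muller glia make as well, and differed by 0.18, from 11.27 to 11.55 on the low-Ttr arrays and from 11.38 to 11.76 on the high-Ttr arrays. Rbp4, the retinol-binding protein of the blood, differed by 1.02 on average. Ins2Akita replicate 1 stood at 8.46, where the median of the high-Ttr arrays was 5.59, and without it the difference was 0.64. Rrh, described above, was the third.

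**Figure D2:**
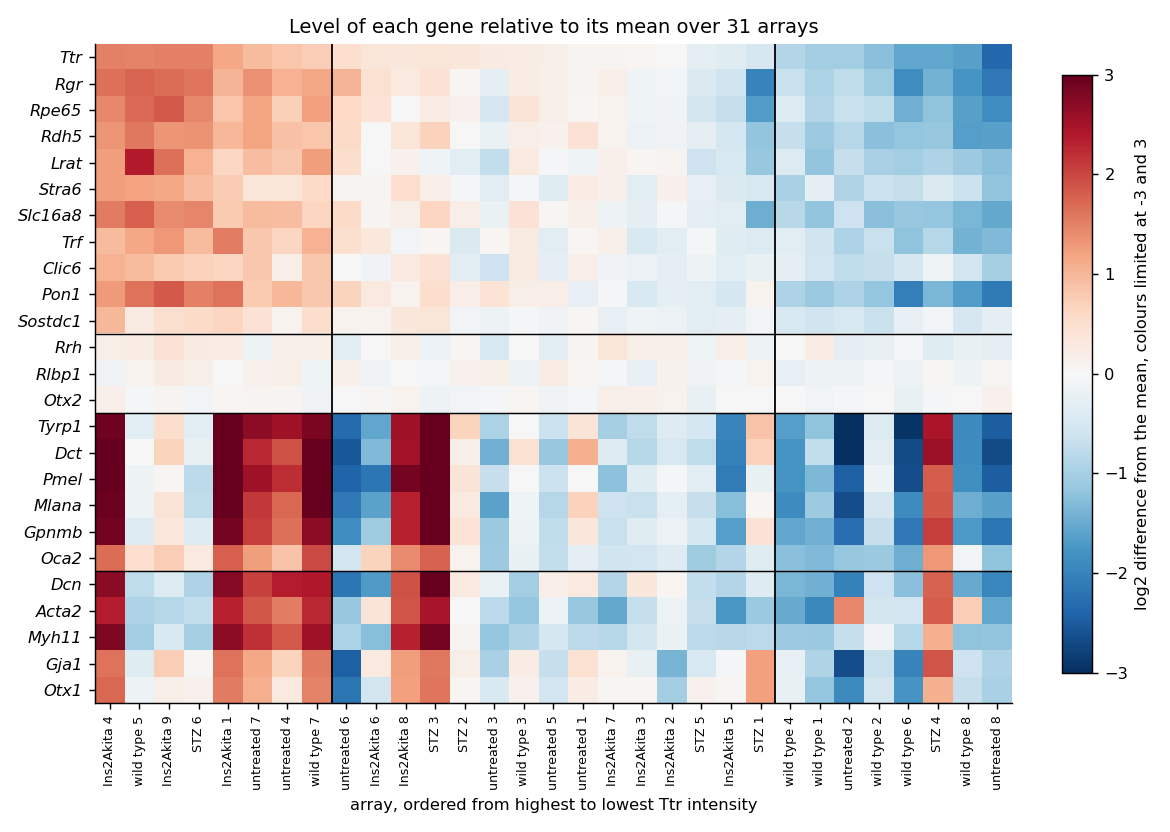
Levels of 25 genes (rows) on 31 arrays (columns, from highest to lowest Ttr) as log2 difference from the gene's mean over all arrays, red above and blue below. Vertical lines bound the 8 high-Ttr and 8 low-Ttr arrays. The retinoid and transport genes at the top, with Pon1 and Sostdc1, follow the order of the arrays, and Rrh, Rlbp1 and Otx2 stay near 0. Below them, melanin, stroma, smooth muscle and ciliary genes are mostly high on 5 of the 8 high-Ttr arrays. They are also high on STZ replicate 4, a low-Ttr array.

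In the list for transport and cell surface, 3 of 14 measured genes did not overlap and the median difference was 0.57. Slc16a8, the lactate transporter MCT3 of the basal face of the pigment epithelium, had a lowest, median and highest level of 7.50, 8.03 and 8.64 against 5.33, 5.69 and 6.23. Its mean difference of 2.32 was a 5.01-fold difference, close in size to that of the retinoid genes. Trf, the iron carrier transferrin, differed by 1.96, from 10.81 to 11.70 on the high-Ttr arrays against 8.75 to 9.85. Clic6, an intracellular chloride channel protein, differed by 1.30. Among members that overlapped, Ptgds, which makes prostaglandin D, differed by 2.31 and the keratin gene Krt8 by 1.32. In both the overlap came from STZ replicate 4, whose Ptgds level of 11.14 and Krt8 level of 6.72 stood above those of the other 7 low-Ttr arrays (at most 9.60 and 5.83). Cdh3, which encodes P-cadherin and was detected on at most 15 of the 31 arrays, differed by 0.74. Mertk, the receptor by which the epithelium takes up shed outer segments, differed by 0.47 and overlapped. Otx2, a transcription factor that photoreceptors and bipolar cells also make, differed by 0.06.

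The 23 genes outside the pigment lists included several whose difference was as large as that of the named pigment genes. Pon1, the paraoxonase that is best known from the liver and from high-density lipoprotein, had 8.38, 9.00 and 9.46 as lowest, median and highest levels on the high-Ttr arrays and 5.49, 6.34 and 6.68 on the low-Ttr arrays. Its difference of 2.73 was second only to that of Rgr among the 32 genes. Gsta2, a glutathione transferase, differed by 1.71, although its probe was detected on only 1 low-Ttr array. Cltrn, which encodes collectrin, a partner of amino acid transporters, differed by 1.59. Flvcr2, a membrane transporter, differed by 1.50, and Car12 is a carbonic anhydrase of the cell surface. Its probe was detected on 0 low-Ttr arrays. Set against the higher of its own signal and the lowest detected signal on each of these arrays, the high-Ttr mean was at least 2.27-fold higher. A second Flvcr2 probe was not kept because too few arrays detected it.

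The rest of these genes were named after their values were seen. Olfml1 differed by 1.37, Adh1, an alcohol dehydrogenase that also acts on retinol, by 1.28, and Slc7a10, a transporter of small neutral amino acids, by 1.28. The tight-junction gene Cldn1 differed by 1.20, Capn6 by 1.02, the phospholipid transfer gene Pltp by 0.92 and Sostdc1, an extracellular antagonist of BMP and Wnt signals, by 0.92. Slc13a3, a carrier of dicarboxylates, differed by 0.84, Slc16a9 by 0.61 and the anion exchanger gene Slc4a2 by 0.54. Mfsd2a, which carries lipids with omega-3 fatty acids, differed by 0.53. Rilp (0.43), Elovl7 (0.32), Apmap (0.19) and Copz1 (0.16) differed least. Like Car12, the protease gene Fap, Upk3b and Ddc, an aromatic amino acid decarboxylase gene, were detected on 0 low-Ttr arrays. By the same bound Fap was at least 1.94-fold higher. For Upk3b and Ddc the same calculation gave 1.20-fold and 1.10-fold, but only 7 and 6 of the 8 high-Ttr arrays detected them. Their high-Ttr means thus include undetected values, so these figures are not strict bounds. Of the 32 genes, 19 were detected on all 8 low-Ttr arrays and 4 on 0 of them.

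The 11172 genes were also compared by how closely they tracked Ttr over all 31 arrays, after each group's mean was subtracted. The arrays share their Ttr range with the ranking, so this likeness is a description. The highest Pearson r was that of Pon1 (0.97), followed by Rdh5 (0.96), Rgr (0.96), Slc16a8 (0.95), Rpe65 (0.95), Trf (0.93), Lrat (0.91), Stra6 (0.91), Flvcr2 (0.89) and Slc7a10 (0.88). Without wild type replicate 5 and untreated replicate 8, the arrays farthest from the median of the centred Ttr level, Pon1 remained at 0.96, Rgr at 0.94 and Rpe65 at 0.93. The r of Rrh was 0.52. Over all genes the median r was -0.00.

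The melanin genes behaved otherwise. With 3.21 for Tyrp1, 3.12 for Pmel and 3.11 for Dct they held the 3 largest positive differences of the listed genes, and Mlana and Gpnmb followed at 2.74 and 2.72, yet 0 of the 15 measured genes were free of overlap. The median difference of the list was 1.17, and 14 of 15 genes were above 0. Tyrp1, an enzyme of melanin synthesis, had a lowest, median and highest level of 8.98, 11.92 and 12.42 on the high-Ttr arrays against 5.78, 7.52 and 11.75 on the low-Ttr arrays. Dct, which encodes another melanin enzyme, dopachrome tautomerase, had 9.22, 11.52 and 12.54 against 5.98, 7.60 and 12.02. The top low-Ttr value in both was that of STZ replicate 4, the only low-Ttr array above the lowest high-Ttr array in either gene. Oca2, a channel protein of the melanosome, differed by 1.92. Tyr, the first enzyme of the pathway, differed by 0.97 and Mitf, the transcription factor of pigment cells, by 0.43. The Tyr probe was detected on only 8 of the 31 arrays, so that its difference is compressed by the background. Slc24a5, an ion exchanger of the melanosome, differed by -0.02.

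The 8 high-Ttr arrays were not alike in these genes. The mean of the melanin list, relative to each gene's mean over 31 arrays, was 0.92 to 1.57 on Ins2Akita replicates 4 and 1, untreated replicates 7 and 4 and wild type replicate 7. It was 0.01, 0.18 and -0.20 on wild type replicate 5, Ins2Akita replicate 9 and STZ replicate 6, which were among the 4 highest arrays in Ttr. On these 3 arrays the corresponding mean of the retinoid genes other than Ttr was 1.13, 1.07 and 0.80, against 0.53 to 0.94 on the other 5. Among the low-Ttr arrays STZ replicate 4 had a melanin mean of 0.93, with the other 7 between -1.24 and -0.42, while its retinoid mean of -0.72 lay within their range of -1.08 to -0.53. In the middle 15 arrays, STZ replicate 3 had the highest melanin mean of the series, 1.64, with a retinoid mean of 0.04.

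Genes of neighbouring tissues also differed on average. Dcn, which encodes decorin of the choroidal and scleral stroma, differed by 2.32, Acta2 and Myh11 of smooth muscle by 1.25 and 1.84, and Gja1, Otx1, Bmp4 and Zic1 of the ciliary body and retinal margin by 1.65, 1.57, 1.33 and 0.80. All of them overlapped between the sets. Of the 9 measured stroma genes 9 were above 0, with a median of 0.42, as were 8 of 9 ciliary genes, with a median of 0.21, and 6 of 8 smooth muscle genes, with a median of 0.21. The stroma mean was 0.52 to 0.73 on the 5 melanin-rich high-Ttr arrays, -0.42 to -0.11 on the other 3, 0.61 on STZ replicate 4 and -0.53 to -0.29 on the other 7 low-Ttr arrays. The ciliary mean was 0.13 to 0.75 on the 5 melanin-rich arrays, -0.08 to 0.13 on the other 3 and 0.64 on STZ replicate 4. On the other 7 low-Ttr arrays it was -0.92 to -0.17. It thus came near the same division, with untreated replicate 4 and Ins2Akita replicate 9 both at 0.13. In 5 measured genes of the choroid plexus, another source of Ttr, the median difference was 0.61, with 0.92 for Sostdc1, 0.89 for Calml4, 0.61 for the folate receptor gene Folr1 and -0.14 for the potassium channel subunit gene Kcne2. The part of these tissues in the differences was not tested.

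Leaving out STZ replicate 4, a choice made after the data were seen, raised the number of genes higher without overlap from 32 to 93 (0.832% of 11172). It raised the melanin genes among them from 0 to 7 of 15 (Tyrp1, Dct, Gpnmb, Oca2, Gpr143, Rab38 and Rab27a). The retinoid genes stayed at 6 of 9, Ttr included, and the transport genes went from 3 to 6 of 14, with Ptgds, Krt8 and Cdh3 added. The ciliary list went from 0 to 2 of 9 (Bmp4 and Otx1), the choroid plexus list from 1 to 2 of 5 (Calml4 added) and the stroma list from 0 to 1 of 9 (Fmod). Leaving out an array can only add to such a count. Without any 1 of the other 15 arrays, the number of probes without overlap stayed between 41 and 52, against 41 with all 16 arrays and 113 without STZ replicate 4.

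**Figure D3:**
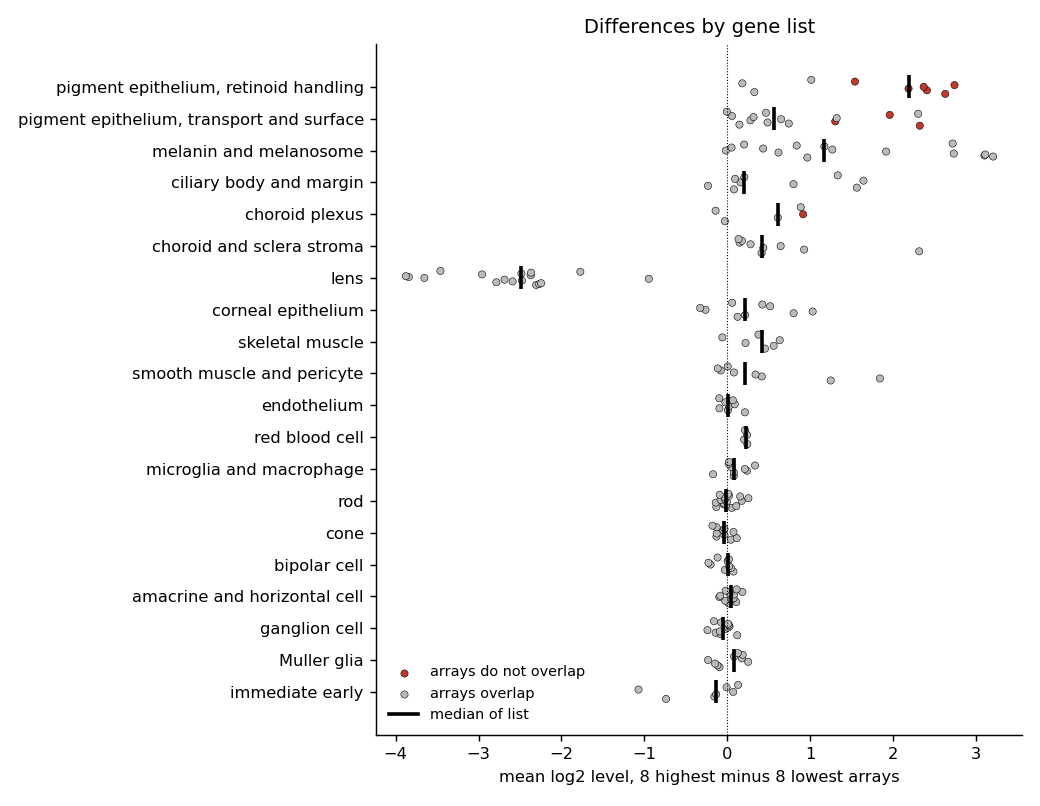
Mean log2 difference between the 8 high-Ttr and the 8 low-Ttr arrays for each measured gene of 20 lists, with the median of each list as a bar. Red points, genes whose arrays do not overlap, lie in the retinoid, transport and choroid plexus lists, and the lens genes all lie below 0.

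Because the sets mixed labelled groups, the same differences were taken within each group that held arrays of both sets. These were 2 against 5 arrays in the wild-type group, 2 against 2 in the untreated group and 1 against 1 in the STZ group. For Rgr they were 2.72, 2.67 and 3.04, for Rpe65 2.49, 2.23 and 2.66, and for Rdh5 2.37, 2.28 and 2.49. Pon1 gave 2.61, 2.41 and 2.88, and Slc16a8 gave 2.37, 2.01 and 2.61. The sign of these values is fixed by the lack of overlap, so that only their size is read here. Some of the 32 genes varied more. Gsta2 had 2.05 and 1.84 in the wild-type and untreated groups but 0.12 in the STZ pair, Cltrn had 1.71, 1.53 and 0.49, and Olfml1 had 1.60, 1.30 and 0.38. The melanin genes turned around: Tyrp1 gave 2.88 and 5.62 in the wild-type and untreated groups and -2.76 in the STZ pair, and the list's medians were 1.19, 1.44 and -0.77. The STZ pair sets 1 array against 1 and holds STZ replicate 4.

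**Figure D4:**
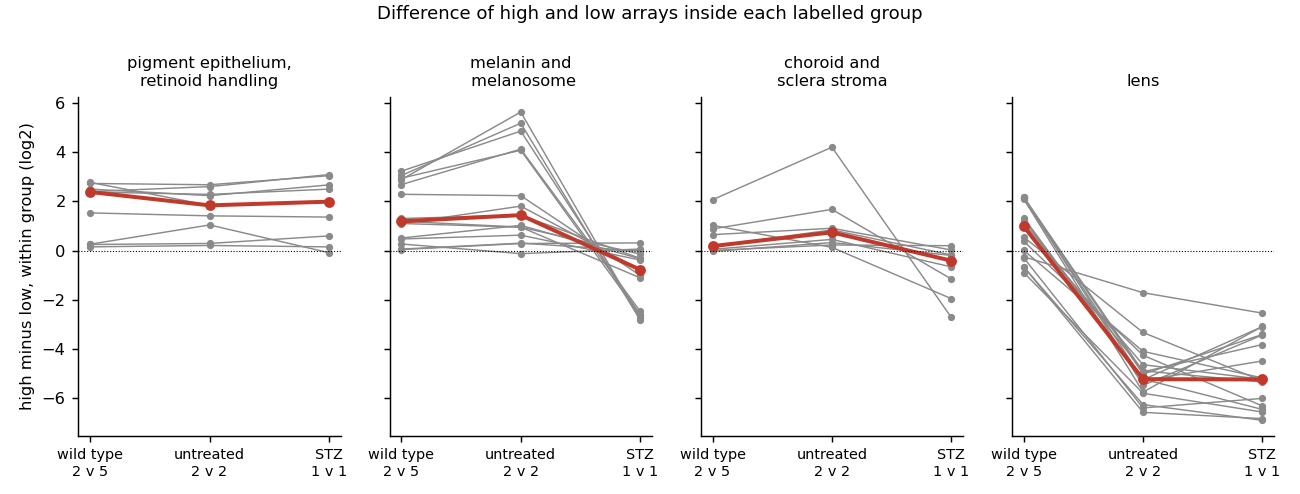
Difference of high-Ttr and low-Ttr arrays (log2, vertical axis) within the wild-type, untreated and STZ groups. Each grey line is a gene of the list named above the panel and the red line is the list's median. Retinoid medians are 2.37, 1.83 and 1.98, with Ttr, which ranked the arrays, among the genes. The medians of the melanin, stroma and lens genes change sign between groups.

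The lens genes were lower on average on the high-Ttr arrays. All 17 measured genes were below 0, with a median of -2.48, and all overlapped. Crygd, a crystallin of lens fibres, had a lowest, median and highest level of 4.30, 6.56 and 9.09 on the high-Ttr arrays and 4.36, 10.08 and 14.08 on the low-Ttr arrays. The lens values thus spanned nearly the whole scale within the low set. In the wild-type group the list's median was 0.98, in the untreated group -5.22 and in the STZ pair -5.23, so the direction differed between groups. Leaving out STZ replicate 4 gave a median of -2.14. The cone, bipolar, ganglion cell and Muller glia lists had medians of -0.04, 0.01, -0.04 and 0.08, each with 0 genes free of overlap.

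The relation was tested in the 15 arrays that the ranking had placed in neither set. In these arrays each probe's level was fitted against that of Ttr with the group means held in the model (limma, 10 residual degrees of freedom), and p-values were adjusted by Benjamini-Hochberg over 16742 probes. Ttr ranged only from 11.73 to 12.73 there, and wild type replicate 3, alone in its group, bore no information on the slope. Exactly 2 probes passed in the positive direction, 0.0119% of those tested, and 0 in the negative direction (0%). Both were probes of Rgr, with slopes of 2.00 ± 0.26 (SE) and 1.77 ± 0.23 log2 units per log2 unit of Ttr and an adjusted p of 0.0179 for each. The third and brightest Rgr probe had a slope of 1.95 ± 0.31 and an adjusted p of 0.0853. At an unadjusted p under 0.05 there were 1241 probes, 7.41% of those tested.

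No other pigment gene passed, and 29 of the 37 tested had a positive slope. Rpe65 had 1.64 ± 0.27 (adjusted p = 0.0985), Slc16a8 1.42 ± 0.27 (adjusted p = 0.185) and Rdh5 1.29 ± 0.27 (adjusted p = 0.330). The slopes of Flvcr2, Lrat, Pon1 and Stra6 were 0.94, 0.92, 0.85 and 0.69, with adjusted p-values by limma of 0.505 to 0.640. Of the 31 genes without overlap other than Ttr, 23 had a positive slope, where 48.8% of all genes had one. The slope was negative in Adh1, Cldn1, Slc13a3, Slc16a9, Ddc, Elovl7, Apmap and Copz1. It was lowest in Adh1, at -1.54 ± 0.75 (adjusted p = 0.681 by limma). Of 8 measured retinoid genes 6 were positive, of 14 transport genes 10 and of 15 melanin genes 13, with medians of 0.81, 0.13 and 0.99. The melanin slopes had wide errors, such as 1.76 ± 1.23 for Tyrp1 and 2.25 ± 1.37 for Pmel. Oca2, at 2.08 ± 0.56, was the steepest of them relative to its error (adjusted p = 0.640 by limma). Krt8, which had differed by 1.32 between the sets, had a slope of -0.02 ± 0.24.

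The calls for Rgr rested on several arrays. Leaving out 1 of 6 arrays in turn ended both calls: the adjusted p by limma rose to 0.148 without Ins2Akita replicate 5, 0.0718 without Ins2Akita replicate 6, 0.0772 without untreated replicate 6, 0.177 without STZ replicate 1, 0.0711 without STZ replicate 2 and 0.102 without STZ replicate 3. The slopes themselves stayed between 1.64 and 2.13 for one probe and between 1.59 and 1.85 for the other. Without untreated replicate 3, 5 probes passed (4 positive and 1 negative), Rpe65 among them at an adjusted p of 0.0157 by limma.

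**Figure D5:**
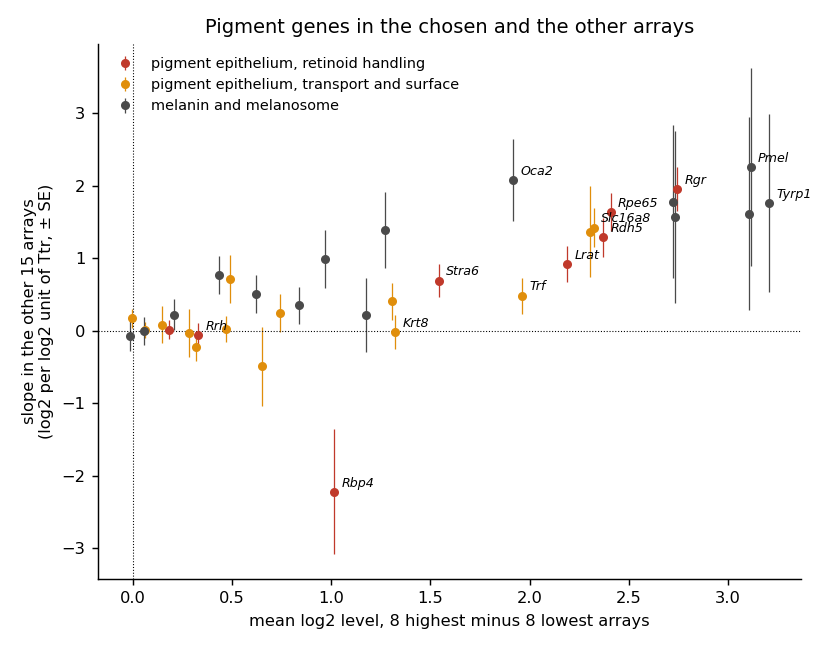
For each measured pigment gene, the difference between the 8 high-Ttr and 8 low-Ttr arrays (horizontal axis, log2) against its slope on Ttr in the other 15 arrays (vertical axis, with standard error). Rgr, Rpe65, Slc16a8 and Rdh5 are high on both axes, Rrh lies near 0 on both, and the melanin genes have the longest error bars.

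The promoters of 5 genes of these lists are shown. They had the largest differences among the pigment genes with a promoter in the part of the RefSeq table used here. They bring together a pair of retinoid genes and 3 melanin genes, which split between the arrays in different ways. Each covers 300 bases around the RefSeq start of the gene in assembly GRCm38.p6, most of them upstream. Capitals mark CATGTG and CACGTG, letters of the E-box that the pigment cell factor MITF and its relatives can bind, and GGATTA, the core letters of OTX and CRX sites, on either strand, so that CACATG and TAATCC are the same motifs read from the other strand. Tyrp1 lies at chr4:80833963-80834262 on the plus strand, Dct at chr14:118052197-118052496 on the minus strand, Rgr at chr14:37048965-37049264 on the minus strand, Gpnmb at chr6:49036268-49036567 on the plus strand and Rpe65 at chr3:159598931-159599230 on the plus strand.
Tyrp1: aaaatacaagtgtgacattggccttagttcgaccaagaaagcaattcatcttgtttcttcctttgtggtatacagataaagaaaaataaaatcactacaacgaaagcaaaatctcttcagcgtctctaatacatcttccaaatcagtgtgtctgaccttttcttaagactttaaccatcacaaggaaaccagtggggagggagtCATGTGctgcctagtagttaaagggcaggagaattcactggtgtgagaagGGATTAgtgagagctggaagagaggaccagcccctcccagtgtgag
Dct: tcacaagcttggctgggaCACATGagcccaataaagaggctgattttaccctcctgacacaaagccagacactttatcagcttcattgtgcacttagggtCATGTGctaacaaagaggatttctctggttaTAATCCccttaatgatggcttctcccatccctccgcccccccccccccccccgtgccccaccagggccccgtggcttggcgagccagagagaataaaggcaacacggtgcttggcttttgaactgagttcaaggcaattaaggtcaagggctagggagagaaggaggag
Rgr: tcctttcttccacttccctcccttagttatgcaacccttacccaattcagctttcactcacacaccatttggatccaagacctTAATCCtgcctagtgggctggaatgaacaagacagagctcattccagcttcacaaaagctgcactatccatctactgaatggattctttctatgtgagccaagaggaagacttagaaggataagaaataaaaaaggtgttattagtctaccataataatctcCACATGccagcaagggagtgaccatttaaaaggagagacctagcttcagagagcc
Gpnmb: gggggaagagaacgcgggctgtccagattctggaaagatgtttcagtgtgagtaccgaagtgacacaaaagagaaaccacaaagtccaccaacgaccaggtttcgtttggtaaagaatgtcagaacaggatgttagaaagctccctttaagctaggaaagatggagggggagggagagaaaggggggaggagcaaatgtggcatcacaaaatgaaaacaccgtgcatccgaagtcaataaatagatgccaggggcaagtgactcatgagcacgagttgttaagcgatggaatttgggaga
Rpe65: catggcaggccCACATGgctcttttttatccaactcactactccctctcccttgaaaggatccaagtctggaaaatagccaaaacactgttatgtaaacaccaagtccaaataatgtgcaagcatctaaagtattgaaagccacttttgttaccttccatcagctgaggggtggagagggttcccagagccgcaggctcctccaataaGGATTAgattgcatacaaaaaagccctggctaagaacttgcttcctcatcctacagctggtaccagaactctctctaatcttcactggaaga
CATGTG was found 1 time in the windows of Tyrp1, Rgr and Rpe65, 2 times in that of Dct and 0 times in that of Gpnmb. GGATTA was found 1 time in each of Tyrp1, Dct, Rgr and Rpe65 and 0 times in Gpnmb, and CACGTG in 0 of the 5. Of 32851 promoters of this length, 14.2% held CATGTG, 7.15% CACGTG and 7.06% GGATTA. Of the 38 measured pigment genes, 29 had a promoter in the part of the RefSeq table used for single genes, which held none for Ttr. The 3 motifs were held by 11, 1 and 7 of these genes, some having several promoters. A match is a run of letters and says nothing of binding in these samples.

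The labelled comparisons were then read for the same genes, since the low-Ttr set held 5 wild-type and 0 Ins2Akita arrays. Ttr averaged 11.74 ± 1.16 (SD, n = 8) in the wild-type group, 12.15 ± 1.10 (n = 8) in the untreated group, 12.21 ± 1.03 (n = 6) in the STZ group and 12.75 ± 0.69 (n = 9) in the Ins2Akita group. Neighbouring groups in this order differed by less than their spread. The Ins2Akita group stood 1.01 ± 0.45 (SE) above the wild-type group, which did not pass (adjusted p = 0.211 by limma over 16743 probes). Rgr differed by 0.89 (adjusted p = 0.356), Rpe65 by 0.63 (adjusted p = 0.480) and Rrh by 0.20 (adjusted p = 0.212 by limma). Of the 38 pigment genes 0 passed in either direction, while 222 genes passed upward (1.99%) and 266 downward (2.38%) of 11172. In probes these calls numbered 696, but 228 with the BeadChip as a random block and 3953 with series matrix values, 3483 of them lower. Only Ins2Akita replicate 9 lay on the BeadChip of another group, so differences between groups and between BeadChips cannot be told apart here.

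Between the STZ and untreated groups Ttr differed by 0.06 ± 0.50 (SE, adjusted p = 0.989 by limma), Rgr by -0.35 and Rpe65 by -0.24. The melanin genes differed by more, with 1.70 ± 0.97 for Dct and 1.62 ± 0.97 for Tyrp1, but with adjusted p-values of 0.644 and 0.678 by limma. Of the 38 pigment genes 0 passed, against 5 genes upward (0.0448%) and 0 downward (0%) of 11172. The test of the difference between the 2 comparisons did not pass for Ttr (adjusted p = 0.762 by limma) or Rgr (adjusted p = 0.702). With the Ttr level as a covariate, the difference between Ins2Akita and wild type turned from 0.89 to -0.21 in Rgr and from 0.63 to -0.35 in Rpe65, and neither passed.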

How the data were processed

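RNA of 31 whole-retina samples was hybridised to single-colour Illumina arrays. Trizol extraction, column clean-up with DNase and labelling as biotinylated cRNA are recorded per the labels' protocols. BeadStudio is named in the submitters' processing notes, with no version or settings in the sources used here. The authors deposited linear intensity values: a table called not normalized (background-subtracted and scaled to a mean of 351.8 on every array, from the values), and the series matrix, whose values have a mean of 403.6 and are a linear function of that table to within 0.0107. A detection p-value accompanies each probe on each array in the deposited table. Scaling before deposit hides differences in total signal, and array number limits the precision.

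From the first table, log2 values were computed with neqc, offset 16 (limma 3.58.1, R 4.3.3), which compresses differences of dim probes. Of 25697 probes, 23978 had 1 symbol in the platform annotation, 0 several and 1719 none, and 23962 matched genes of GRCm38.p6 by Entrez ID. The 16743 probes with a detection p under 0.05 on at least 6 arrays were kept, 15730 of them with a symbol, for 11172 genes, each read on its brightest probe. The group comparisons used 4 group means over all 31 arrays (lmFit, eBayes), two-sided, with Benjamini-Hochberg adjustment and a threshold of 0.05. The scripts were tested on simulated data. The members, lists and tests were chosen with earlier results of these data known. Of 46 listed pigment genes, 40 were found by name on the array and 38 were kept.

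Genes named are Ttr and Rrh, measured members of the 3 pigment lists, up to 4 members of each other list with the largest difference, the 12 largest rises and up to 8 falls without overlap, the 10 positive and 5 negative slopes with the smallest p, and the 10 genes most like Ttr. Plots used Python 3.11.15 with matplotlib 3.10.9. Alternatives were other normalizations, detection filters, rankings, blocks, covariates and left-out arrays. Proteins were not used here.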

Additional observations from a re-analysis of the deposited data

Results flagged for a closer look

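Values that stood apart within a set or labelled group, by the size of their gap to the nearest array relative to the whole range, numbered 21 of 258 combinations of gene and group tested. Chance flags about 1 in 20 such groups, and genes of 1 list on 1 array are not independent. All values are log2 levels.

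Among the 8 low-Ttr arrays, STZ replicate 4 was flagged as above the rest in 7 genes. In other genes, such as Tyrp1 and Dct, it was also the highest but was not flagged. In the 7 flagged genes its levels were 6.72 in Krt8, 11.14 in Ptgds, 5.43 in Tyr, 5.47 in Gpr143, 7.59 in Rab38, 11.81 in Gpnmb and 5.76 in Gsta2. The nearest of the other low-Ttr arrays stood at 5.83, 9.60, 4.40, 4.52, 6.46, 9.03 and 4.93. The 6.47 of the same array in Rpe65 lay inside the range of the other 7, whose median was 6.81.

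In the wild-type group, replicate 7 was flagged as above the rest in 5 melanin genes. Its levels were 6.51 in Tyr, 10.98 in Pmel, 10.56 in Mlana, 5.97 in Slc45a2 and 12.43 in Gpnmb. The nearest wild-type arrays stood at 4.52, 7.52, 7.14, 5.13 and 9.59. Wild type replicate 7 also had the highest skeletal muscle mean of the 8 high-Ttr arrays, 2.30, where the other 7 lay between -0.33 and 0.08.

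Among the 8 high-Ttr arrays, 4 single values were set apart. Rrh was low on untreated replicate 7, at 8.91 against 9.24 on the nearest array. Clic6 was low on untreated replicate 4, at 8.46 against 8.91. Krt18, a keratin gene, was high on wild type replicate 5, at 9.48 against 8.80. Slc24a5 was low on Ins2Akita replicate 1, at 4.67 against 5.44.

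In the Ins2Akita group, Rbp4 was high on replicate 1, at 8.46 against 5.83, Efemp1, an extracellular matrix gene, was high on replicate 9, at 7.86 against 7.14, and Myo7a, a motor protein of pigment epithelium and photoreceptors, was low on replicate 9, at 6.72 against 7.11. In the STZ group, Rab27a, which takes part in melanosome transport, was high on replicate 3, at 9.08 against 8.45, and Car12 was high on replicate 6, at 6.31 against 5.19.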

How the results depend on the processing

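The count of probes separating the sets was 41, all higher, and 39 with median scaling. It was 36 with series matrix values and 28 among probes detected on all 31 arrays, all higher. It was 24 (24 higher) with arrays ranked within their groups, which kept 14 of the 16 arrays, 73 (67 higher, 6 lower) with the 6 highest and 6 lowest arrays, and 6 (5 higher, 1 lower) with arrays ranked by Rrh, which kept 10 arrays. Without a detection filter 2 were lower. Leaving out 1 of the 16 arrays in turn, chosen after the data were seen, gave 41 to 113 (41 to 111 higher and 0 to 2 lower). The tops of 113 and 111 belonged to STZ replicate 4. The 2 lower probes were also reached without other arrays, such as wild type replicate 7. Single-gene differences were counted once for each gene under each alternative. Of these combinations, 341 were within the spread between arrays. A further 32 moved beyond it (22 with the Rrh ranking and 10 with series matrix values). Among genes without overlap 0 changed sign, and changes of sign were not counted in genes that overlapped. The 2 probes whose slope passed became 0 without a detection filter (0 positive, more probes being tested), 4 (4 positive) without the group means and 70 (68 positive, 2 negative) over all 31 arrays, which the ranking had used. Leaving out 1 array gave 0 to 5 (0 to 4 positive, 0 to 1 negative), and the lens list as a covariate changed neither call.

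Between Ins2Akita and wild type 696 probes passed. There were 3953 (470 higher, 3483 lower) with series matrix values, where the median of all probes was -0.09, and 228 (94 higher, 134 lower) with BeadChip as a random block. Between STZ and untreated 6 passed, 2 (2 higher) with series matrix values, 1 (1 higher) with the BeadChip block, and 1 was lower without a filter. The difference between those comparisons had 3 probes, 12 (5 higher, 7 lower) with series matrix values, 1 (1 higher, 0 lower) with the BeadChip block and 6 (4 higher, 2 lower) without a filter. Samples of the same replicate number did not deviate together as a rule, though single pairs did. In the first comparison the median correlation was -0.05, with 3 of 8 pairs above 0.1 and the highest at 0.33. In the second the median was -0.06, with 1 of 6 pairs above 0.1, at 0.42. With the replicate block 848 and 17 (15 higher, 2 lower) probes passed, and the Ttr difference between STZ and untreated became -0.024. With Ttr as a covariate, Ins2Akita minus wild type became -0.14 in Rdh5, -0.35 in Rpe65, -0.37 in Lrat, -0.20 in Slc16a8 and -0.21 in Rgr, none passing. The causes of these shifts were not tested. Dim probes such as those of Lrat and Car12 have little signal over background on the low-Ttr arrays.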

Other observations

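Genes of striated muscle were high on single arrays of different Ttr rank. The mean of 6 measured skeletal muscle genes stood at 2.30 on wild type replicate 7, the last of the high-Ttr arrays, and at 3.14 on Ins2Akita replicate 8, in the middle of the ranking. Acta1, the actin of skeletal muscle, reached 9.83 on the high-Ttr arrays, where its median was 6.19, and stayed at or below 6.45 on the low-Ttr arrays. Keratin genes of the ocular surface, Krt15 and Krt14, were 1.03 and 0.80 higher on average on the high-Ttr arrays and overlapped. They were the upper end of a corneal epithelium list of 9 genes with a median of 0.22, of which 7 were above 0.

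Of 7 immediate early genes, with a median difference of -0.13 and 2 above 0, Egr1 and Fos differed most, by -1.07 and -0.74. Within groups the Egr1 difference was -1.46 in the wild-type group, 0.76 in the untreated group and -1.44 in the STZ pair. Egr1 itself was lower in the Ins2Akita group than in the wild-type group by -1.78 ± 0.45 (SE, adjusted p = 0.0202 by limma), and 5 of the 8 low-Ttr arrays were wild type. Among the 15 arrays in neither set, a probe of the kinesin gene Kif4 had the negative slope on Ttr nearest to passing, -0.83 ± 0.14 (adjusted p = 0.0985 by limma).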
